A study of Mus musculus with 19 samples.

Results

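The comparison described here is between 2 kinds of mouse leukemia that carry an internal tandem duplication (ITD) in the receptor gene FLT3 together with Cre and 1 or 2 floxed copies of Dnmt3a. It sets 4 retroviral leukemias that had been sorted as CD4+CD8+ cells against 3 leukemias of Flt3-ITD knock-in mice taken as unsorted bone marrow, 7 of the 17 RNA-seq libraries of the series. The libraries were chosen by their labels alone. All animals were C57BL/6 mice.

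The 4 retroviral leukemias, called T leukemias 1 to 4 below, combined Mx1-cre+ and Dnmt3af/f with the vector MSCV_FLT3-ITD-GFP. Donor marrow cells enriched for Sca-1 had been transduced with a retrovirus that makes FLT3-ITD and, from the same transcript, GFP, and had been given to lethally irradiated recipients. Sorted donor-derived CD4+CD8+ cells were sequenced, from the marrow of recipients for T leukemias 1 and 2 and from the thymus for T leukemias 3 and 4. The 3 knock-in leukemias carried 1 mutated copy of the mouse's own Flt3 gene, which makes the ITD form under the control of the Flt3 locus. Of these, 2, the knock-in f/+ leukemias 1 and 2, had the genotype ER-cre+;Dnmt3af/+;Flt3+/ITD and so 1 floxed copy of Dnmt3a, while the knock-in f/f leukemia was ER-cre+;Dnmt3af/f;Flt3+/ITD. A pair of groups without leukemia served as references, namely CD4+CD8+ thymocytes of 2 Mx1-cre+;Dnmt3af/f;MSCV_GFP recipients and bulk pre-leukemic marrow of 3 ER-cre-;Dnmt3af/f;Flt3+/ITD mice. Lineage, sorting, transplantation, the source of FLT3-ITD, the Cre driver and, in part, the number of floxed Dnmt3a copies change together between the 2 kinds of leukemia, so their shares in any difference cannot be told apart. T leukemias 1 and 2 were also processed with an earlier version of the authors' software than the other 5 libraries, per the submitters' processing notes. Among the T leukemias, tissue and software version thus change together and cannot be told apart. The labels call the libraries biological replicates but do not tie them to animals, so p-values measure the spread between these libraries.

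FLT3 is a receptor tyrosine kinase of early blood progenitors, and the ITD makes it signal without its ligand, through STAT5 and the RAS-MAPK pathway among others. DNMT3A is a DNA methyltransferase that sets methylation patterns as stem cells differentiate, and mutations in both genes occur together in human acute leukemia. In the thymus, Notch signals commit progenitors to the T lineage, the pre-T cell receptor then drives them to the CD4+CD8+ stage, and the RAG recombinase assembles the T cell receptor genes. In the marrow, PU.1 and C/EBP factors drive the myeloid lineage, whose cells load the enzymes of the primary granules first and those of the later granules afterwards.

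The labels were checked against defining genes. Cd4 and Cd8a, which mark the sorted cells, read 179 to 406 and 235 to 816 CPM (read counts relative to library size, scaled by TMM) in the 4 T leukemias and at most 4.75 and 6.16 CPM in the 3 knock-in leukemias. Dnmt3a, on chromosome 12 at 3806980 to 3914443 in mm9, read 64.5, 129, 67.3 and 53.4 CPM in T leukemias 1 to 4, 53.4, 47 and 36.7 in knock-in f/+ leukemias 1 and 2 and the f/f leukemia, 207.3 and 144.2 in the 2 reference thymocyte libraries and 127.5 to 152.4 in the 3 Cre-negative marrow libraries. Only T leukemia 2 reached the range of the references in these gene totals, and the other 6 leukemias were below it. The totals also count reads from exons outside the floxed part, so they are not a measure of deletion. The Dnmt3a level was higher in the T leukemias (log2 fold change 0.78, SE 0.27, adjusted p = 0.0496 by edgeR's quasi-likelihood test). That call ended without T leukemia 1, 2 or 3, knock-in f/+ leukemia 2 or the f/f leukemia, with log2 fold changes between 0.43 and 0.84 and adjusted p between 0.0526 and 0.164.

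The 7 libraries held 7660541 to 19493377 counts. Pearson's r of log2 CPM across 14722 genes was 0.779 to 0.813 between a T and a knock-in leukemia, 0.861 to 0.964 among the T leukemias and 0.886 to 0.958 among the knock-in leukemias (a description across genes, which are not independent). A library stood apart in each group. T leukemia 4, with r of 0.861 to 0.88 to the other 3, had mean log2 CPM of 6.51 over 23 monocyte and macrophage genes and 6.19 over 17 stroma and endothelium genes, against at most 3.61 and 3.71 in the other T leukemias, and only 5.39 over 25 S phase and mitosis genes against 7.34 or more. Knock-in f/+ leukemia 1 had lower levels of the late neutrophil genes (5.84 against 8.3 and 8.53) and higher levels of the stem and progenitor genes (5.26 against 3.31 and 3.45) than the other 2 knock-in leukemias. T leukemia 2 alone held Xist reads (2319 CPM) and no Ddx3y reads, whereas the other 6 libraries held 125.9 to 200.6 CPM of the Y-linked Ddx3y and at most 0.06 CPM of Xist. Where a call between the leukemias ended without 1 library, or a called fold change printed below moved by more than 1.5 times, the result of that fit is given beside it.

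The promoters of 6 genes called between the leukemias are shown, the CD3 genes of the T cell receptor complex, neighbours on chromosome 9, and the genes for proteases and the peroxidase of the primary granules, of which Prtn3 and Elane are neighbours on chromosome 10. Each sequence is the 250 bases before the RefSeq start in GRCm38.p6, 5′ to 3′ on the gene's strand, at chr9:44980432-44980681 (Cd3g, minus strand), chr9:44981536-44981785 (Cd3d, plus), chr9:45009612-45009861 (Cd3e, minus), chr10:79879417-79879666 (Prtn3, plus), chr10:79886062-79886311 (Elane, plus) and chr11:87793534-87793783 (Mpo, plus). Capitals mark GAGGAA (an ETS core that PU.1 binds), AACTG (MYB), CACCTG and CAGCTG (E proteins), TGTGGT (RUNX) and TTGCNNAA (C/EBP), on either strand, with the longer GAGGAAGT, which was added after the sequences were seen and overlaps GAGGAA.
Cd3g: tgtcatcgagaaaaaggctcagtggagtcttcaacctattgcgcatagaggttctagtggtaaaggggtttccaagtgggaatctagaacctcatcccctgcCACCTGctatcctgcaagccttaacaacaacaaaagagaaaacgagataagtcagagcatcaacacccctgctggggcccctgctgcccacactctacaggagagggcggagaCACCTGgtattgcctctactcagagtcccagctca
Cd3d: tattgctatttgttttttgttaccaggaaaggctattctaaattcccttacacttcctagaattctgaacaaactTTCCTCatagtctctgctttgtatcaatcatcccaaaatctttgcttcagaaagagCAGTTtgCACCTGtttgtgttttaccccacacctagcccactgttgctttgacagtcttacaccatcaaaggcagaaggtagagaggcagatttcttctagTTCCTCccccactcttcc
Cd3e: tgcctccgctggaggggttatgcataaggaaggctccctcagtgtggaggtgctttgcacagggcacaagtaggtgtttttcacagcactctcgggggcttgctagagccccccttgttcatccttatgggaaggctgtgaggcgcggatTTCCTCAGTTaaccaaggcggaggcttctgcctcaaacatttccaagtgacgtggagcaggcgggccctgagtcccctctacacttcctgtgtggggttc
Prtn3: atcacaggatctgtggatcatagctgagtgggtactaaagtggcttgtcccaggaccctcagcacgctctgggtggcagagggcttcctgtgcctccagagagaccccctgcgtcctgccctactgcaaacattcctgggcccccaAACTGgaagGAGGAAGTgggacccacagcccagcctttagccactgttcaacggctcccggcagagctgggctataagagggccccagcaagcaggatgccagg
Elane: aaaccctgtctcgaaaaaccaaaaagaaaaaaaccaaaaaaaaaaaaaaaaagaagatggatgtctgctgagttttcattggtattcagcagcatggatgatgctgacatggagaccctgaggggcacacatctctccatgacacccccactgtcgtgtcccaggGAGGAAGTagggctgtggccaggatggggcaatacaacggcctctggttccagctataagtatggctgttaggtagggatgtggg
Mpo: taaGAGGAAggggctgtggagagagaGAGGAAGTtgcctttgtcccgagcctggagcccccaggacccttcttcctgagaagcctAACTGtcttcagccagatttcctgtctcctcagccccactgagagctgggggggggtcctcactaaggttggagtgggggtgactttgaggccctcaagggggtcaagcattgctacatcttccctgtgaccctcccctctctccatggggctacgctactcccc

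GAGGAA was in the windows of Cd3d, Cd3e, Prtn3, Elane and Mpo, so it did not separate the 2 kinds of gene, and 23.3% of all 32851 RefSeq promoter windows of this length hold it. The longer GAGGAAGT was in the 3 granule gene windows and in none of the CD3 windows, with 2.4% of all windows holding it. CACCTG was in the Cd3g window in 2 places, in the Cd3d window in 1 and in none of the granule gene windows (17.2% of all windows), AACTG was in those of Cd3d, Cd3e, Prtn3 and Mpo (39.1%), and CAGCTG (13%), TGTGGT (14%) and TTGCNNAA (9.6%) were in none of the 6. Over the genes called with an 8-fold or larger difference, CACCTG was in 24% of 538 windows of genes higher in T leukemia and 17.2% of 670 windows of genes higher in knock-in leukemia, CAGCTG in 20.1% and 13%, and GAGGAA in 23.8% and 28.7%. GAGGAAGT, added after the 6 windows were seen, was in 1.7% and 3.9%, so most windows of either set lacked it. These matches describe letters in a window and were not tested.

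Of 14722 genes tested, 3485 (23.7%) differed between T and knock-in leukemias at an adjusted p under 0.05 (edgeR quasi-likelihood test, Benjamini-Hochberg), 1654 (11.2%) higher in T leukemia and 1831 (12.4%) higher in knock-in leukemia. These shares are the background for the counts in every gene list below. The differences were large, with 2720 of the called genes past 2-fold and 1315 past 8-fold, of which 604 were higher in T and 711 in knock-in leukemia. At the other end, the 95% interval of 4419 genes (30%) lay within 2-fold in either direction. The 4 and the 3 libraries did not overlap for 3439 genes (23.4%), 2743 of them also called (18.6%), and the median log2 fold change over all tested genes was 0.063 (all fold changes below are T minus knock-in, on the log2 scale).

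**Figure D1:**
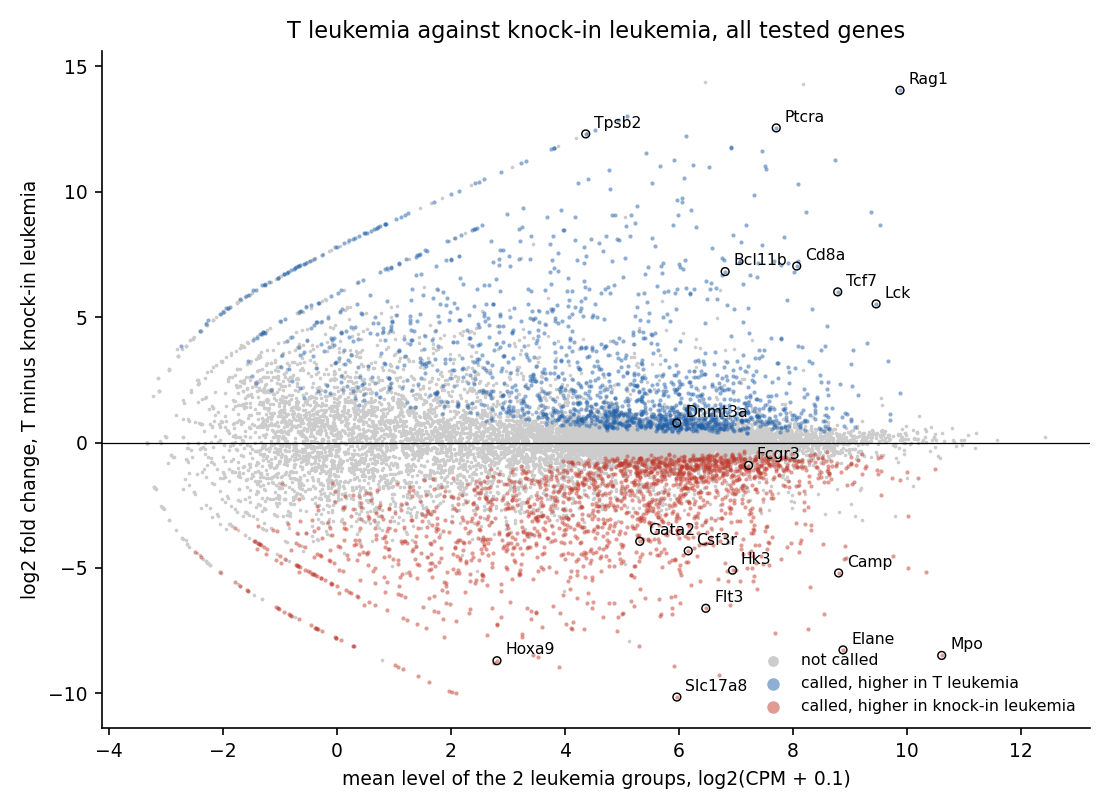
Log2 fold change of T against knock-in leukemia (vertical axis) by the mean level of both groups in log2(CPM + 0.1) (horizontal axis), with 1 point per tested gene. The 1654 genes called higher in T leukemia are blue, the 1831 called higher in knock-in leukemia are red and the rest are grey; Rag1 and Ptcra lie at the top, and Mpo, Elane and Slc17a8 at the bottom. The curved lines of points along the edges are genes at or near 0 in a whole group.

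The T cell receptor complex and the kinases and adaptors beside it were on in the T leukemias and nearly off in the knock-in leukemias. Of 22 genes on this list, 21 were higher in T leukemia and none in knock-in leukemia, with a median log2 fold change of 5.62. Cd3d, an invariant chain of the complex, read 518, 362, 588 and 287 CPM in T leukemias 1 to 4 and 3.3, 2.06 and 4.32 in the knock-in leukemias (log2 fold change 7.08, SE 0.42, adjusted p = 1.87e-07). Cd3g, its neighbour, read 536, 410.3, 589 and 384 against 4.86, 1.35 and 3.83 CPM (7.15, SE 0.44). The groups were far from overlapping for both genes.

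Zap70, the kinase that docks on the phosphorylated complex, read 149, 155, 183 and 61.1 against 2.12, 1.42 and 2.11 CPM (6.17, SE 0.39), lowest in T leukemia 4. Themis, an adaptor needed for thymocyte selection, read 279, 446, 192 and 170.2 against 1.93, 0.639 and 0.648 CPM (7.98, SE 0.55). Lck, the kinase that acts before Zap70, read 1837, 1401, 1065 and 1191 CPM in the T leukemias and 68.5, 9.79 and 10.6 in the knock-in leukemias, where f/+ leukemia 1 stood out (5.53, SE 0.65). The one member that did not pass was Cd6, a later T cell surface receptor, at 2.62, 11, 23.8 and 5.99 against 3.49, 7.24 and 6.86 CPM (adjusted p = 0.269), where the groups overlapped. Mean log2 CPM over the list was 6.53 to 7.33 in the T leukemias, lowest in T leukemia 4, and 1.51 to 2.16 in the knock-in leukemias, beside 8.24 and 8.34 in the reference thymocytes and 0.68 to 1 in pre-leukemic marrow. Themis had a log2 fold change of 8.71 and Lck of 7.08 without knock-in f/+ leukemia 1, each still called.

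Genes of the CD4+CD8+ thymocyte stage followed the same division, with 16 of 18 higher in T leukemia, none higher in knock-in leukemia and a median of 6.47. Rag1, the recombinase subunit on chromosome 2 (101478411 to 101489689 in mm9), had the largest difference of the named genes, at 2011, 3850.0, 266 and 1373 CPM against 0.187, 0 and 0.108 (14.05, SE 1.32, adjusted p = 8.68e-06). T leukemia 3 was the lowest of the 4 by a wide margin, as it was for Rag2, the partner subunit, at 168, 283, 11.1 and 39.7 CPM. Arpp21, an RNA-binding protein of immature thymocytes, read 435, 520.3, 228 and 278 against 0.124, 0.284 and 0.108 CPM (11.03, SE 0.5), and Cd4 179, 318, 303 and 406 against 1.99, 1.92 and 4.75 (6.69, SE 0.43). Rag1 had a log2 fold change of 13.43 without T leukemia 2 and 14.73 without knock-in f/+ leukemia 1, still called.

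Terminal transferase, Dntt, which adds bases at receptor gene joins, was an exception within the knock-in group. It read 747, 1221, 250.3 and 300.5 CPM in the T leukemias and 45.6, 0.923 and 1.24 in the knock-in leukemias, so knock-in f/+ leukemia 1 held far more than the other 2, and its log2 fold change was 5.31 with that library and 9.16 without it. The members that did not pass were Slc7a11 and Siglecg. Dntt had a log2 fold change of 4.71 without knock-in f/+ leukemia 2 and the same value without the f/f leukemia, still called.

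Among T lineage transcription factors, 8 of 15 were higher in T leukemia and 1 in knock-in leukemia (median 2.36). The DNA-binding partners of beta-catenin, Lef1 and Tcf7, read 279, 450.2, 178 and 488 against 2.37, 0.497 and 1.51 CPM (7.88, SE 0.55) and 1385, 1001, 706 and 374 against 15.2, 8.87 and 16.2 CPM (6.01, SE 0.45). Bcl11b, which closes off other fates during T commitment, read 186, 362, 154 and 186 against 2.37, 0.923 and 2.54 CPM (6.82, SE 0.69), and the E protein Tcf12 read 676, 801, 572 and 590.5 against 139.9, 104 and 124 (2.42, SE 0.2). Tcf12 was thus clearly present in both leukemias and differed by a smaller factor than Lef1 or Bcl11b. Gata3, needed from early T cells onwards, read 47, 40.8, 93.8 and 41.7 CPM against 33.5, 0.497 and 1.84 and was not called (adjusted p = 0.0958), with knock-in f/+ leukemia 1 close to the T leukemias. Without that library its log2 fold change was 5.55 in place of 2.22, and it was called.

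The factor that went the other way was Runx3, which represses Cd4 in the CD8 lineage and also acts in myeloid cells, at 9.97, 7.39, 73 and 8.56 CPM against 155, 98.1 and 74.3 (-2.15, adjusted p = 0.0294). T leukemia 3, at 73 CPM, lay far above the other T leukemias; without it the fold change was -3.68 (adjusted p = 1.19e-05), while the call ended without T leukemia 1 or 2 or either f/+ leukemia (adjusted p 0.0534 to 0.0867). Runx1, its relative, differed in the opposite direction, at 26.62, 50.15, 27.15 and 27.67 CPM per kilobase of exon in the T leukemias against 8.91, 16.13 and 22.22 (1.06, adjusted p = 0.0188, or 0.0512 without T leukemia 2).

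Notch receptors and their targets were high in T leukemias 1, 2 and 4 and lower in T leukemia 3. Of 15 genes, 10 were higher in T leukemia and 1, Hes5, in knock-in leukemia, with a median of 4.94. Notch3 read 487, 869.7, 84.6 and 714 CPM against 0.934, 1.7 and 7.94 (7.24, SE 0.95), and Notch1 1312, 2589, 378 and 1583 against 58.6, 174 and 232 (3.24, SE 0.63). Dtx1, a Notch target that encodes a ubiquitin ligase, read 868, 1092, 57.8 and 1404 against 0.187, 0.142 and 0.648 CPM (11.26, SE 1.3). In all 3 genes T leukemia 3 was the lowest of the T leukemias and still above every knock-in leukemia. Notch3 had a log2 fold change of 8.65 and Dtx1 of 12.24 without the f/f leukemia, each still called.

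Ptcra, the pre-T cell receptor chain and a direct Notch target, followed the same order. It read 742, 506, 33.4 and 385 CPM in T leukemias 1 to 4 and 0.124, 0 and 0.054 in the knock-in leukemias, where its 3 counts in all made the ratio 7037 with a 95% counting interval of 2408 to 34130. Il2ra, which encodes the growth factor receptor chain CD25 of early thymocytes, read 1674, 2164, 622 and 1400.0 against 7.41, 1.92 and 1.3 CPM (8.69, SE 0.99), and Gpr83, an orphan receptor on the list, 114, 162, 105 and 102 against 0, 0 and 0.108. Mean log2 CPM over the list was 4.9 in T leukemia 3 and 6.58 to 6.93 in the other 3, against 1.15 to 1.77 in the knock-in leukemias and 3.8 and 4 in the reference thymocytes. Il2ra had a log2 fold change of 9.84 without knock-in f/+ leukemia 1, still called.

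**Figure D2:**
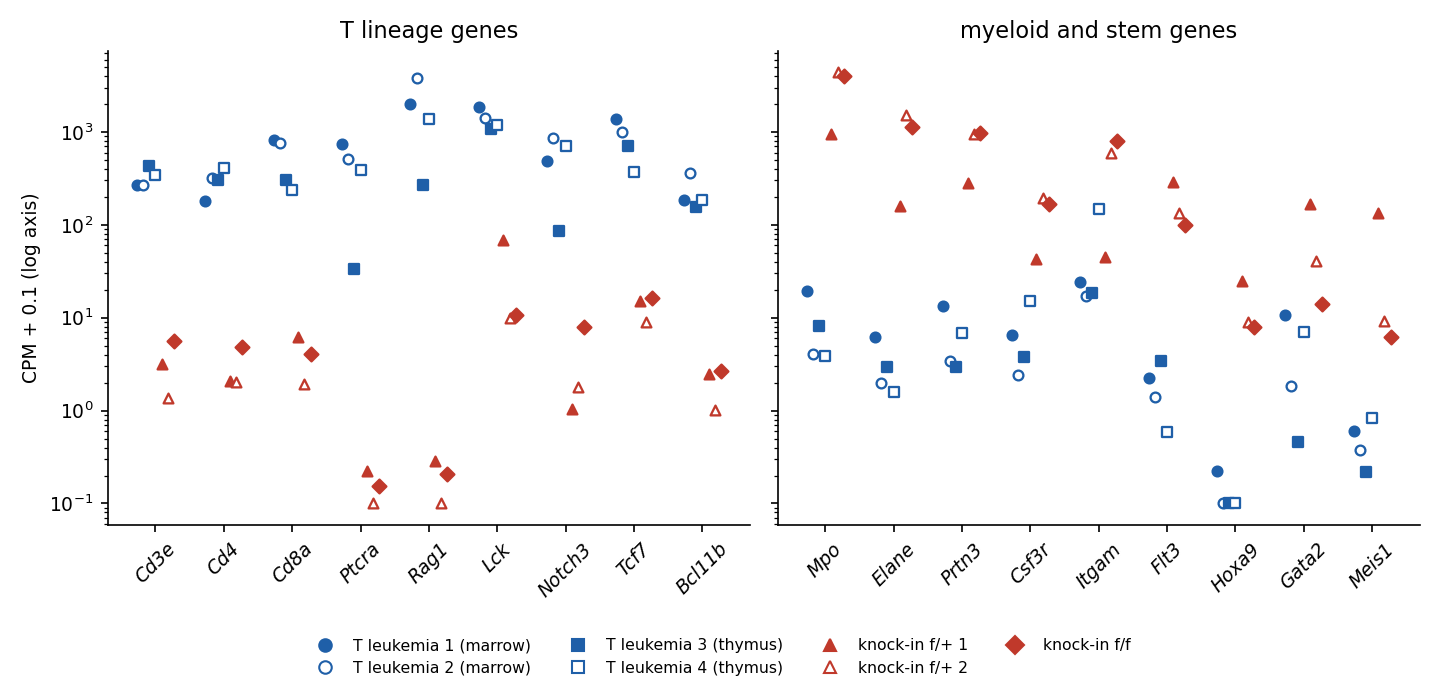
CPM + 0.1 on a log axis for 9 T lineage genes (left) and 9 myeloid and stem cell genes (right), with 1 symbol per library. Circles are the T leukemias from marrow, squares those from thymus, triangles the knock-in f/+ leukemias and the diamond the f/f leukemia. No T leukemia symbol overlaps the knock-in symbols for Cd3e, Cd4, Cd8a, Ptcra, Rag1 or Mpo, whereas T leukemia 4 lies above knock-in f/+ leukemia 1 for Itgam.

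Among the 12 genes with the largest differences towards T leukemia, several are better known from other tissues. Syt13, a synaptotagmin of vesicle transport, read 322, 224, 607 and 247 CPM against 0.124, 0 and 0.162 (11.64, SE 0.83), and the potassium channel gene Kcnh3 134, 108, 44.8 and 52.8 against 0, 0 and 0.0540. Both were also high in the reference thymocytes, at 325.4 and 201.4 CPM for Syt13 and 72.37 and 53.28 for Kcnh3. Slc16a5, of the monocarboxylate transporter family, read 183, 237, 35.5 and 100.4 CPM against 0, 0.071 and 0, and Morc1, a chromatin protein best known from male germ cells, 33.9, 26.9, 41.1 and 8.92 CPM against 0 in all 3 knock-in leukemias, at least 447.7-fold higher if 3 counts are taken as the floor for the whole group.

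Olig3, a helix-loop-helix factor of the developing nervous system, read 59.5, 72.5, 105 and 6.48 CPM and Vwce 21.4, 27.7, 35.8 and 185 CPM, each with no counts in the 3 knock-in leukemias, at least 1034-fold and 948.1-fold higher. Necab1, a calcium-binding protein known from neurons, read 511, 369.8, 24.2 and 60.8 CPM against 0.0623, 0 and 0.108. Others of the 12 were concentrated in 1 library. Cd163l1, a scavenger receptor gene, read 6.86, 0.672, 943 and 9.17 CPM, so that T leukemia 3 held nearly all of it; its log2 fold change was 11.75 with that library and 6.33 without it (adjusted p = 0.0494). Its call ended without knock-in f/+ leukemia 2 or the f/f leukemia (adjusted p = 0.0629 and 0.0648). Fam163b read 2.62, 4.2, 7.49 and 92.4 CPM, highest in T leukemia 4, against no counts in the knock-in leukemias. Cd163l1 had a log2 fold change of 12.63 without knock-in f/+ leukemia 1, still called.

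The genes of primary granules, which mark promyelocytes, were the mirror image. Of 9 tested, 7 were higher in knock-in leukemia and none in T leukemia, with a median of -6.83. Mpo, the myeloperoxidase gene on chromosome 11 (87607286 to 87617914 in mm9), read 19.2, 3.92, 7.96 and 3.79 CPM in the T leukemias and 939, 4381 and 3991 in knock-in f/+ leukemias 1 and 2 and the f/f leukemia (-8.49, SE 1.02, adjusted p = 7.85e-05). Elane, neutrophil elastase, read 6.11, 1.9, 2.85 and 1.47 against 158, 1509 and 1138 CPM (-8.27, SE 1.02). For both, knock-in f/+ leukemia 1 was several times below the other 2, and T leukemia 1 was the highest of its group. Mpo had a log2 fold change of -9.22 without T leukemia 1, still called.

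Gstm1, a glutathione transferase on the list, read 9.6, 3.47, 10.8 and 21.4 against 123, 384 and 436 CPM (-4.80, SE 0.54), and Ms4a3, a membrane protein of granulocyte-monocyte progenitors, 5.49, 1.18, 0.951 and 0.978 against 160.2, 634 and 430.4 (-7.61, SE 0.94). Prtn3, proteinase 3, read 13.3, 3.36, 2.85 and 6.72 against 281, 948 and 979.9 CPM (-6.83, SE 0.89). Mean log2 CPM over the list was 7.67 to 9.62 in the knock-in leukemias, beside 7.83 to 8.21 in pre-leukemic marrow, and 2.89 to 4.53 in the T leukemias. Ms4a3 had a log2 fold change of -8.60 without T leukemia 1, still called.

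Late neutrophil genes were higher in knock-in leukemia for 23 of 29, and for none in T leukemia (median -4.46). Pglyrp1, a bactericidal granule protein, read 11.1, 3.25, 3.45 and 8.07 against 123, 304 and 239.5 CPM (-5.11, SE 0.89), and Fcnb, a ficolin, 2.62, 0.616, 0.119 and 0.244 against 11.4, 136 and 158 (-6.84, SE 1.32). Cybb, the membrane subunit of the phagocyte oxidase, read 21.2, 14.5, 12.5 and 98.2 against 106, 1022 and 1597 CPM (-4.64, SE 1), so T leukemia 4 nearly reached knock-in f/+ leukemia 1. The knock-in leukemias had 5.84 to 8.53 mean log2 CPM over the list, above pre-leukemic marrow at 2.81 to 3.41. The count of genes fell to 14 without knock-in f/+ leukemia 2 and to 15 without T leukemia 2, and it was 9 when only the later-deposited libraries entered (T leukemias 3 and 4 and all knock-in leukemias). Fcnb had a log2 fold change of -8.11 without T leukemia 1. Cybb had a log2 fold change of -5.81 without T leukemia 4 and -3.95 without the f/f leukemia. Both kept their calls in these fits.

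Myeloid transcription factors were higher in knock-in leukemia for 8 of 15 genes and in T leukemia for 1, with a median of -2.14. Nfe2, a factor of the megakaryocyte, erythroid and myeloid lineages, read 8.23, 30.1, 8.2 and 13.4 against 217, 297 and 256 CPM (-4.08, SE 0.81). Cebpa, the factor that opens the granulocyte path, read 4.61, 3.86, 2.62 and 32.6 against 45.4, 222 and 280.2 CPM (-4.07, SE 1.06), and Cebpe, which acts later in granule formation, 2.12, 0.728, 0.119 and 0.244 against 3.67, 158 and 56.9 (-6.50, SE 1.44). Irf8, the monocyte and dendritic cell factor, read 11.3, 8.96, 26.5 and 56.7 against 60.4, 356 and 456 CPM (-3.49, SE 0.8). Nfe2 had a log2 fold change of -4.69 without T leukemia 2. Cebpa had a log2 fold change of -5.62 without T leukemia 4. Cebpe had a log2 fold change of -7.49 without T leukemia 1 and -5.21 without knock-in f/+ leukemia 2. Irf8 had a log2 fold change of -4.21 without T leukemia 4. All kept their calls in these fits.

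For receptors and proximal signalling genes of myeloid cells, 15 of 30 were higher in knock-in leukemia and none in T leukemia (median -1.76). For monocyte and macrophage genes the counts were 5 of 23 against 1 (median -0.85). The share of the monocyte list called in either direction, 26.09%, was near the 23.7% of all genes. The receptor and monocyte counts on the knock-in side both depended on T leukemia 4. Without it, the counts higher in knock-in leukemia were 26 of 30 and 13 of 23, and 11 of 15 transcription factors. The receptor count was 9 without T leukemia 1, knock-in f/+ leukemia 2 or the f/f leukemia, and without the f/f leukemia the monocyte and transcription factor counts were 3 and 5. Mrc1, the macrophage mannose receptor, read 29.4, 7.22, 17.6 and 1120.0 CPM in T leukemias 1 to 4, so T leukemia 4 was above all knock-in leukemias (10.7, 5.68 and 34.9 CPM), and its log2 fold change of 4.1 (adjusted p = 0.0714) was 0.09 without it and passed without T leukemia 2 or 3 (adjusted p = 0.0419 and 0.0496). Csf1r, the receptor of macrophage growth factor, read 16.6, 7.62, 9.03 and 308 against 31.1, 147 and 346 CPM, not called at -1.04 but called at -3.97 without T leukemia 4. Since the libraries are bulk samples, a larger share of cells of another type and more RNA per cell cannot be told apart, and the part of such cells in the values of T leukemia 4 was not tested.

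The monocyte genes that passed with T leukemia 4 included Ccr2, the chemokine receptor of blood monocytes, at 7.23, 10.4, 17.4 and 2.93 against 44.9, 259 and 599.9 CPM (-4.99, SE 0.83), and Ly6c2 at 19.6, 6.78, 20.7 and 54.5 against 72.2, 692 and 799.9 (-4.37, SE 0.9). Csf3r, the receptor of granulocyte growth factor, read 6.48, 2.3, 3.69 and 15 against 42.8, 196 and 169 CPM (-4.32, SE 0.95). Itgam, the CD11b integrin chain, read 23.9, 17, 18.2 and 148 against 44.9, 588 and 795 CPM (-3.20, adjusted p = 0.0207); its call ended without T leukemia 1 or 2, knock-in f/+ leukemia 2 or the f/f leukemia (adjusted p 0.0511 to 0.0764). Ccr2 had a log2 fold change of -4.01 without the f/f leukemia, and Ly6c2 of -5.05, Csf3r of -5.05 and Itgam of -4.59 without T leukemia 4, each still called.

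Stem and progenitor genes were higher in knock-in leukemia for 14 of 25 and in T leukemia for 1 (median -3.17). Mean log2 CPM over the list was 3.31 to 5.26 in the knock-in leukemias, below pre-leukemic marrow at 5.94 to 6.82. It was 0.85 to 1.98 in the T leukemias and 0.17 and 0.51 in the reference thymocytes. Flt3 itself, on chromosome 5 (148142317 to 148212065 in mm9), read 2.12, 1.29, 3.33 and 0.489 CPM in the T leukemias and 289.7, 135 and 100.1 in the knock-in leukemias (-6.61, SE 0.66, adjusted p = 1.49e-05). The reference thymocytes read 2.56 and 3.29 CPM and pre-leukemic marrow 153.2 to 264.2, so the T leukemias were at or near the low level of thymocytes and the knock-in leukemias between somewhat below and just above that of pre-leukemic marrow. How far reads of the retroviral FLT3-ITD would be counted in the mouse gene is not given by the labels, so this value describes the mouse locus as counted.

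Hoxa7, Hoxa9 and Hoxa10, homeobox regulators of progenitor self-renewal, were at or near 0 in every T leukemia. Hoxa9, on chromosome 6 (52174053 to 52177369 in mm9), read 0.125, 0, 0 and 0 CPM in the T leukemias, 1 count in all, against 24.6, 8.87 and 7.78 in the knock-in leukemias, a ratio of 580.3 with a 95% counting interval of 103.8 to 22950. Hoxa7 read 0.125, 0, 0 and 0.122 against 22, 8.23 and 6.16 CPM, 254.4-fold by counts with an interval of 70.1 to 2105, and Hoxa10 0.125, 0.168, 0 and 0.367 against 11, 2.77 and 0.972 (-4.83, SE 1.01). Their cofactor Meis1 read 0.499, 0.28, 0.119 and 0.733 against 135, 9.23 and 6.1 CPM (-6.97, SE 1.09, or -4.26 without knock-in f/+ leukemia 1). Hoxa10 had a log2 fold change of -5.44 without T leukemia 4 and -3.44 without knock-in f/+ leukemia 1, still called.

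Hhex, a homeobox factor of early progenitors, read 1.62, 1.51, 3.21 and 6.97 against 159, 101 and 123 CPM (-5.28, SE 0.76) with no great spread within the knock-in group. Hlf, a factor of stem cells, read 0.374, 0.112, 0.357 and 0.367 against 218, 10.7 and 4.92 CPM (-8.11, SE 1.23), and Cd34, a surface marker of progenitors, 2.87, 0.504, 1.9 and 26.5 against 725, 109 and 95.9 (-5.31, SE 1.15). Knock-in f/+ leukemia 1 was the highest library for Meis1, Hlf and Cd34; without it the fold change of Hlf was -4.78. The exception was Slamf1, a receptor used to sort stem cells that thymocytes also carry, at 56.9, 57.8, 80.8 and 32.1 against 0.56, 0.426 and 1.13 CPM (6.29, SE 0.52). Kit, the stem cell factor receptor, read 23.3, 4.76, 80 and 10.6 against 30.1, 157 and 153 CPM and was not called (adjusted p = 0.121). Without T leukemia 3 its log2 fold change was -3.14 in place of -1.94, and it was called (adjusted p = 0.0202). Hhex had a log2 fold change of -5.95 without T leukemia 4. Hlf had a log2 fold change of -8.71 without the f/f leukemia. Cd34 had a log2 fold change of -7.59 without T leukemia 4 and -3.71 without knock-in f/+ leukemia 1. All kept their calls in these fits.

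Of the 12 genes with the largest differences towards knock-in leukemia, 6 rested mainly on knock-in f/+ leukemia 1. Slc17a8, a vesicular glutamate transporter gene, read 366, 5.89 and 1.08 CPM in the 3 knock-in leukemias against 0, 0, 0.119 and 0.367 in the T leukemias (-10.15, or -4.89 with adjusted p = 0.0145 without that library). Gdf10, a secreted factor of the bone morphogenetic protein family, read 351, 2.91 and 4.54 against 0.125, 0, 0.119 and 0.856 CPM (-8.91, or -3.79 with adjusted p = 0.0978 without it). Zswim5, Crispld1, Kcnj11 and Ncam2 read 23.22, 22.16, 17 and 62.94 CPM in that library and at most 0.78 in the other 2. Zswim5, Crispld1 and Kcnj11 had no counts in the T leukemias, so their fold changes are fitted values that depend on how zeros are handled. Without knock-in f/+ leukemia 1 the log2 fold changes, in the same order, were -5.03, -5.62, -5.80 and -3.18. The calls of Kcnj11 and Ncam2 then ended (adjusted p = 0.0642 and 0.156). The call of Ncam2 also ended without T leukemia 1 or 2 (adjusted p = 0.0544 and 0.0542). Slc17a8 had a log2 fold change of -9.51 without T leukemia 2, -11.73 without T leukemia 4, -10.76 without knock-in f/+ leukemia 2 and -10.77 without the f/f leukemia. Gdf10 had a log2 fold change of -8.32 without T leukemia 2, -10.79 without T leukemia 4, -9.52 without knock-in f/+ leukemia 2 and -9.52 without the f/f leukemia. Both kept their calls in these fits.

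The others were spread over the group or highest in the other 2 knock-in leukemias. Gpr141, an orphan receptor gene, read 16.4, 269.7 and 334 CPM against 0.499, 0.168, 0.119 and 0.611 (-9.28, SE 1.13). Kcnk12, a potassium channel gene, read 5.42, 21.2 and 13 against 0, 0.056, 0 and 0 CPM, 547.1-fold by counts with an interval of 97.84 to 21640. Clec4b2, a lectin receptor gene whose close relatives may share reads with it, read 1.56, 15.1 and 8.26 CPM and Ptprr, a tyrosine phosphatase gene, 0.311, 9.72 and 5.46 CPM, against no counts in the T leukemias, at least 113.4-fold and 70.68-fold higher.

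Feedback regulators and targets of STAT5 and MAPK signalling, which FLT3-ITD activates, did not move as a block. Of 26 genes, 3 were higher in T leukemia and 6 in knock-in leukemia (median -1.01), against 11.2% and 12.4% over all genes. Without T leukemia 4 the knock-in count was 11, and without knock-in f/+ leukemia 1 the T count was 6. Socs3, an inhibitor of cytokine receptor signalling, read 147, 284, 88.2 and 217 against 20.5, 3.97 and 20.5 CPM (3.62, SE 0.55), and Dusp4, a MAP kinase phosphatase, 22.8, 15.7, 4.64 and 8.19 against 0.747, 0.355 and 1.4 (3.92, SE 0.79). Towards the knock-in side, the kinase gene Pim1 read 110.0, 154, 90.3 and 72.7 against 364, 183 and 219 CPM (-1.26, SE 0.26) and Spry2, an inhibitor of receptor kinase signalling, 0.249, 0.112, 0.594 and 2.69 against 16, 14.7 and 17.8 (-4.17, SE 0.94). Spry2 had a log2 fold change of -5.73 without T leukemia 4, still called.

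The STAT5 target genes Cish, Socs2 and Pim2, singled out after their values were seen, were far higher in knock-in f/+ leukemia 1 than in the other knock-in leukemias, whereas Socs3 on the same list was equally high in that library and the f/f leukemia. Cish, a STAT5-induced inhibitor, read 162, 245, 291 and 264 CPM in the T leukemias but 578, 26.3 and 12.8 in the knock-in leukemias (adjusted p = 0.878), so that knock-in f/+ leukemia 1 was above every T leukemia and the other 2 were below. Without that library the log2 fold change was 3.62 (adjusted p = 0.000287) in place of 0.22. Socs2 read 26.3, 35, 126 and 55.2 against 634, 42.2 and 23.4 CPM and Pim2 11.2, 10.5, 12.2 and 5.26 against 464, 12.3 and 6.86, with the same library highest. The log2 fold change of Pim2, -4.04 (adjusted p = 0.0125), was 0.04 without it (adjusted p = 0.957), and that of Socs2, which did not pass, went from -1.95 to 0.89. Pim2 had a log2 fold change of -4.63 without the f/f leukemia, still called.

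Related genes were compared in 22 pairs by CPM per kilobase of exon. The first gene of each pair is called the T cell gene below and the second the myeloid gene. For pairs such as Ikzf3 and Ikzf1, Runx3 and Runx1 or Dnmt3b and Dnmt3a, these names set only the order of comparison. In 7 pairs the T cell gene was the higher of the pair in all 4 T leukemias and the myeloid gene the higher in all 3 knock-in leukemias. In the receptor pathway these were the kinases Zap70 and Syk, the adaptors Lat and Lat2 and the phospholipases Plcg1 and Plcg2. Among factors and receptors they were Gata3 and Gata2, Bcl11b and Bcl11a, Ets1 and Sfpi1 (which encodes PU.1), and the interleukin-7 and granulocyte growth factor receptors Il7r and Csf3r.

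Plcg1 ran from 42.48 to 63.22 CPM per kilobase in the T leukemias and Plcg2 from 1.5 to 4.47, while in the knock-in leukemias Plcg1 was 3.63 to 9.53 and Plcg2 67.45 to 76.01. The order of the pair was reversed between the groups with wide gaps. Zap70 and Syk came closest to each other in T leukemia 4, at 28.04 and 23.14 CPM per kilobase, against 68.24 to 83.76 and 12.25 to 20.46 in the other T leukemias and 0.65 to 0.97 and 22.35 to 68.21 in the knock-in leukemias. Ets1 and Sfpi1 were also closest there, at 76.85 and 62.54.

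In 10 pairs both genes were called, the T cell gene as higher in T leukemia and the myeloid gene as higher in knock-in leukemia, and 6 pairs met both conditions. Gata3 and Gata2 met only the first, because Gata3 was not called. Their Gata2 value, called at -3.94 (adjusted p = 0.0186), was -2.48 without knock-in f/+ leukemia 1 (adjusted p = 0.0942). Sfpi1 (-3.11, adjusted p = 0.0252) lost its call without T leukemia 1 or 2, knock-in f/+ leukemia 2 or the f/f leukemia (adjusted p 0.0568 to 0.0726) and read -4.70 without T leukemia 4 (adjusted p = 0.00103). Il7r (4.85, adjusted p = 0.014) lost its call without knock-in f/+ leukemia 2 (adjusted p = 0.054). Gata2 had a log2 fold change of -4.68 and Il7r of 4.25 without T leukemia 1, each still called.

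The signalling chains of the receptors, Cd3e against Fcer1g and Cd247 against Tyrobp, kept the T order in T leukemias 1 to 3 and lost it in T leukemia 4, where Tyrobp stood at 270.4 and Cd247 at 66.67. In 11 pairs neither condition held, among them Ikzf3 and Ikzf1, where Ikzf1 was the higher gene in all 7 libraries, and Runx3 and Runx1, which were called the other way round.

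**Figure D3:**
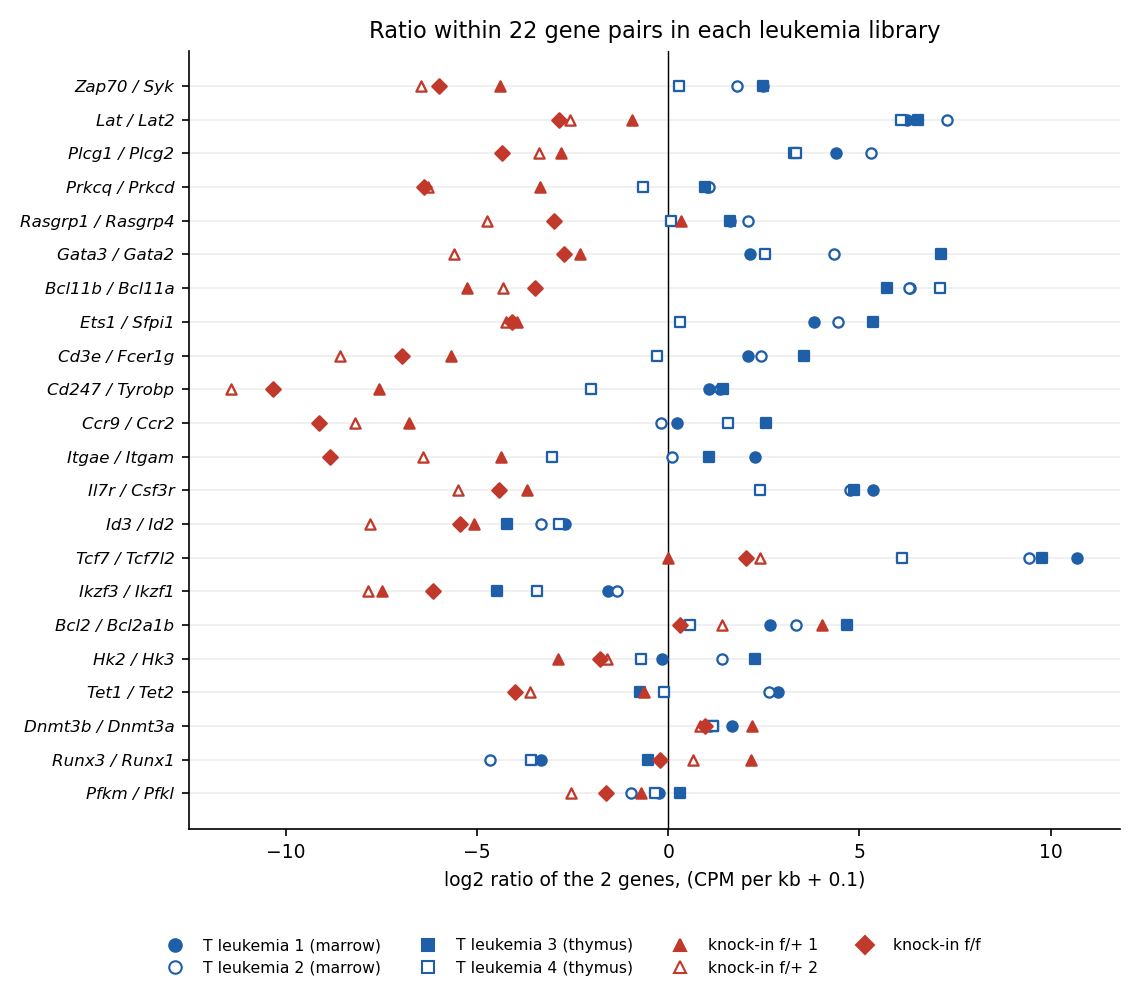
Log2 ratio of the first gene to the second in 22 pairs, from CPM per kilobase of exon with 0.1 added, with 1 symbol per leukemia library. Symbols right of the line at 0 mean that the first gene was the higher. Zap70 / Syk, Lat / Lat2 and Bcl11b / Bcl11a lie right of the line in all 4 T leukemias and left of it in all 3 knock-in leukemias.

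Genes of cell survival leaned towards the T leukemias, where 11.2% of all genes were higher. Of 15 BCL2 family genes, 6 were higher in T leukemia and none in knock-in leukemia (median 1.4). Members of both kinds were among them. The protective Bcl2 read 307, 435, 1251 and 408 against 204, 75.3 and 60.8 CPM (2.4, SE 0.54) and Bcl2l1, which encodes BCL-XL, 83.8, 145, 64.5 and 118 against 30, 35.1 and 51.6 (1.4, SE 0.31). The death-promoting Bcl2l11, which encodes BIM, read 126, 249, 262 and 219 against 20.7, 37.1 and 42.9 CPM (2.67, SE 0.41) and Bmf 184, 346, 367 and 614 against 13.6, 44.9 and 66.1 (3.19, SE 0.72). In all 4 genes every T leukemia was above every knock-in leukemia. Bcl2 had a log2 fold change of 1.73 without T leukemia 3 and 3.15 without knock-in f/+ leukemia 1, still called.

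Among 16 genes that write, read or erase DNA methylation, 4 were higher in T leukemia and 1 in knock-in leukemia (median 0.28), against 11.2% and 12.4% over all genes. Besides Dnmt3a, Tet1, which oxidises methylcytosine, read 31.2, 46.1, 24.7 and 40.6 against 20.2, 17.7 and 11.6 CPM (1.11, adjusted p = 0.014, or 0.0596 without the f/f leukemia), and Uhrf1, which guides maintenance methylation, 698, 779.5, 278 and 203 against 177, 143 and 210.3 (1.47, adjusted p = 0.0204). Tet2, the relative of Tet1 often mutated in myeloid leukemia, read 2, 4.09, 27.6 and 28.7 against 21, 153 and 135 CPM (-2.73, adjusted p = 0.0242). It was low in the T leukemias from marrow and near knock-in f/+ leukemia 1 in those from thymus, which also differ in software version. These calls were fragile: the count of genes higher in T leukemia was 1 without T leukemia 1, without T leukemia 2, without knock-in f/+ leukemia 2 and without the f/f leukemia, and Uhrf1 and Tet2 lost their calls in 3 such fits each (adjusted p 0.0561 to 0.0768 and 0.0545 to 0.0838).

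Homing receptors and integrins divided evenly, 4 of 20 higher in each direction, against 11.2% higher in T and 12.4% higher in knock-in leukemia over all genes. Ccr4, a chemokine receptor of thymocytes and some T cells, read 96.4, 137, 58.8 and 40.5 against 1.8, 0.355 and 0.216 CPM (6.71, SE 0.79), and Ccr9, which draws progenitors and T cells to thymus and gut, 10.5, 11.1, 127 and 11.4 against 0.0623, 0.639 and 0.864 (6.22, SE 1.18), by far highest in T leukemia 3. Towards knock-in leukemia, Cd44, the hyaluronan receptor that CD4+CD8+ thymocytes have shut off, read 8.35, 5.77, 21.3 and 64.2 against 164, 514 and 668 CPM (-4.18, SE 0.88). Without knock-in f/+ leukemia 1 the count on the knock-in side was 9, and without knock-in f/+ leukemia 2 it was 2. Ccr4 had a log2 fold change of 8.18 without knock-in f/+ leukemia 1. Ccr9 had a log2 fold change of 4.35 without T leukemia 3 and 6.84 without the f/f leukemia. Cd44 had a log2 fold change of -5.25 without T leukemia 4. All kept their calls in these fits.

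No gene of the cell division list passed the test. None of 25 S phase and mitosis genes was called in either direction by edgeR (median -0.05), 0 were at an unadjusted p under 0.05 and DESeq2 and limma voom also called 0, and mean log2 CPM was 7.34 to 7.82 in T leukemias 1 to 3, 5.39 in T leukemia 4 and 7.01 to 7.7 in the knock-in leukemias. Without T leukemia 4, 2 of the 25 were higher in T leukemia. Of 20 MYC target and ribosome biogenesis genes, 2, Bop1 and Nme1, were higher in T leukemia, a share below the 11.2% of all genes (median 0.05; adjusted p = 0.0378 and 0.0389), and neither remained called without T leukemia 1, 2 or 3, knock-in f/+ leukemia 2 or the f/f leukemia (adjusted p 0.0526 to 0.152).

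Glycolysis genes were higher in knock-in leukemia for 14 of 20 and in T leukemia for 1 (median -1.21). Pgam1, phosphoglycerate mutase, read 90.3, 100.2, 63.5 and 64.4 against 208, 389 and 322 CPM (-1.94, SE 0.25), and the aldolase gene Aldoa 170.3, 242, 368 and 351 against 603, 1874 and 1142 (-2.09, SE 0.32). The hexokinases Hk2 and Hk3, which trap glucose in the cell, read 10.8, 16.8, 9.87 and 16.9 against 34.5, 174 and 122 (-3.01, SE 0.42) and 7.23, 3.53, 0.951 and 16.5 against 154, 311 and 248 CPM (-5.09, SE 0.88). The 4 genes were higher in every knock-in leukemia than in any T leukemia, as was the glucose transporter gene Slc2a3, at 19.3, 9.18, 4.87 and 29.5 against 128, 305 and 188 CPM (-3.73, SE 0.84). Hk3 had a log2 fold change of -5.94 without T leukemia 4, still called.

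The exception was Ldhb, the lactate dehydrogenase chain that favours pyruvate, at 329.7, 402, 46.1 and 161 CPM in the T leukemias against 32.4, 16.6 and 25.6 (3.24, SE 0.67). Mean log2 CPM over the list ran from 6.45 to 6.63 in the T leukemias, 6.11 and 6.26 in the reference thymocytes, 7.14 to 7.4 in pre-leukemic marrow and 7.45 to 8.32 in the knock-in leukemias. The count on the knock-in side was 9 without knock-in f/+ leukemia 2.

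Interferon response genes were higher in T leukemia for 7 of 25 and in knock-in leukemia for none (median 0.85), against 11.2% and 12.4% over all genes. Zbp1, a sensor of nucleic acids, read 87, 131, 46.2 and 48.2 against 1.8, 4.4 and 6.8 CPM (4.17, SE 0.52), and Isg15, a ubiquitin-like modifier, 47, 37.8, 14.9 and 44 against 4.17, 1.06 and 2.43 (3.81, SE 0.52). Usp18, the protease that removes ISG15, read 28.2, 44.9, 36.4 and 41.8 against 1.06, 0.568 and 0.594 CPM (5.66, SE 1.02). The knock-in leukemias had the lowest mean log2 CPM over the list of the 4 groups, 2.18 to 2.91, against 3.15 to 4.4 in the T leukemias, 3.96 to 4.55 in pre-leukemic marrow and 4.48 and 4.52 in the reference thymocytes. The count was 4 without knock-in f/+ leukemia 2.

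**Figure D4:**
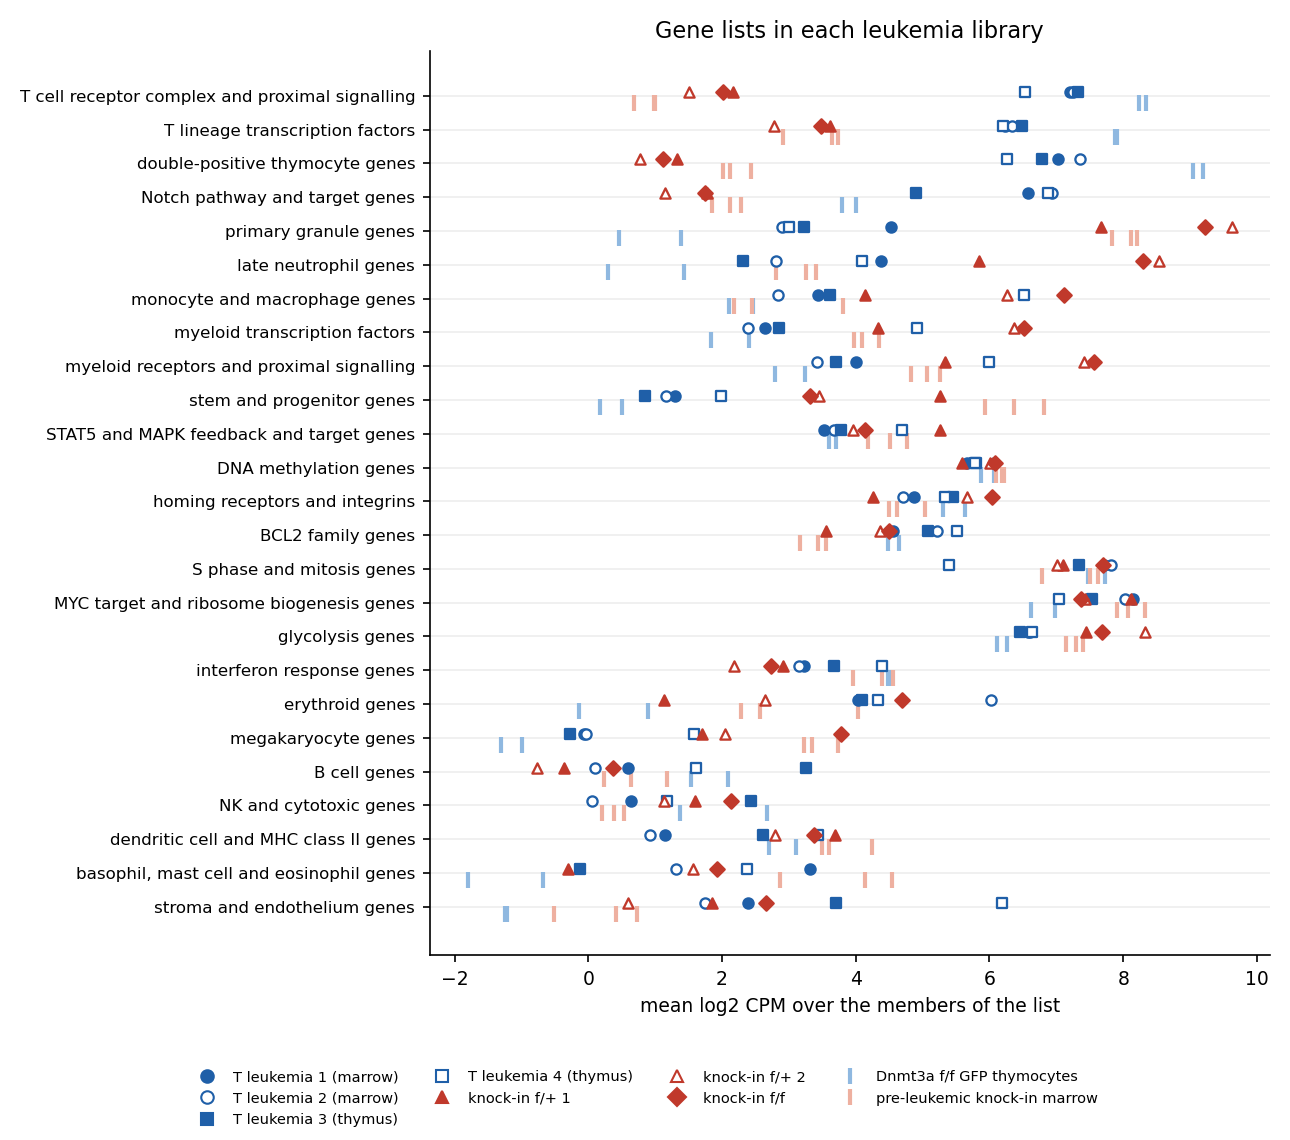
Mean log2 CPM over the members of each of the 25 gene lists (horizontal axis) in the 7 leukemia libraries, as symbols, with the 2 reference thymocyte and 3 pre-leukemic marrow libraries as short bars beneath. Blue symbols are T leukemias and red symbols knock-in leukemias; T leukemia 4 lies right of the other T leukemias for the monocyte and stroma lists and left of them for the S phase list.

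Genes of other cell types were also compared, since the marrow was unsorted and the sorted cells could hold others. Megakaryocyte genes were higher in knock-in leukemia for 6 of 14 (median -2.79), against 12.4% over all genes. Among them was Itga2b, the platelet integrin CD41, at 6.98, 4.14, 2.38 and 19.7 against 84.2, 52.2 and 38.5 CPM (-2.82, SE 0.64). Natural killer and cytotoxic genes gave 3 of 14 higher in T leukemia and 1 in knock-in leukemia, against 11.2% and 12.4% over all genes. The first included Gzma, granzyme A, at 1434, 519, 3002 and 318 against 3.17, 1.21 and 2.27 CPM (9.2, SE 0.94), highest in T leukemia 3, while the receptor gene Klrk1 read 0, 0, 0.238 and 0.122 against 3.98, 5.32 and 12.5 CPM. Itga2b had a log2 fold change of -3.71 without T leukemia 4 and Gzma of 8.4 without T leukemia 3, each still called.

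B cell genes were higher in T leukemia for 4 of 16, against 11.2% over all genes. They were led by the coactivator gene Pou2af1 at 25.1, 6.66, 34 and 40.5 against 0.249, 0.355 and 1.46 CPM (5.23, SE 1.2). The list summed to 78.8 to 289 CPM in the T leukemias and 48.2 to 113 in the knock-in leukemias. The count was 2 without knock-in f/+ leukemia 2. Dendritic cell and MHC class II genes gave 2 of 15 higher in knock-in leukemia, a share near the background, and none was called without any 1 of T leukemias 1 to 3 or of the knock-in leukemias. Erythroid genes gave 3 of 21 higher in T leukemia, near the 11.2% of all genes, the globin genes Hba-a1 and Hbb-b1, whose near-identical copies may share reads, and Alas2. Hbb-b1 was called in no fit that left out a library other than T leukemia 4. All 3 calls ended without T leukemia 3, without knock-in f/+ leukemia 1 and without knock-in f/+ leukemia 2 (adjusted p 0.0696 to 0.111). Pou2af1 had a log2 fold change of 6.42 without the f/f leukemia, still called.

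Stroma and endothelium genes gave 4 of 17 higher in T leukemia, against 11.2% over all genes, with a median of 2.54. They summed to 225 to 991 CPM in T leukemias 1 to 3, 3272 in T leukemia 4 and 75.3 to 469 in the knock-in leukemias. Col3a1, a fibroblast collagen, read 9.23, 5.71, 58.6 and 672 against 3.05, 0.213 and 3.51 CPM, and Lyve1, a receptor of lymphatic vessels and some macrophages, 2, 0.784, 4.99 and 209.9 against 0.623, 0.852 and 1.13. Without T leukemia 4 their log2 fold changes were 3.43 in place of 6.35 and 1.56 in place of 5.95, neither was called (adjusted p = 0.118 and 0.234), and 1 gene of the list was called higher in T leukemia. Their calls also ended without any 1 knock-in leukemia (adjusted p 0.0735 to 0.103), and the count was 1 without knock-in f/+ leukemia 1 or 2 and 0 without the f/f leukemia.

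A tryptase and a chymase of mast cells were present in T leukemias 1, 2 and 4 and nearly or wholly absent from T leukemia 3 and the knock-in leukemias. Tpsb2, the tryptase, read 93.9, 6.1, 0.119 and 63.8 CPM and Cma1, the chymase, 99.1, 8.96, 0 and 76 CPM, each with no counts in the 3 knock-in leukemias, at least 529.1-fold and 602.4-fold higher by the same floor. They made up the 2 of 12 basophil, mast cell and eosinophil genes called higher in T leukemia (adjusted p = 0.0235 and 0.0174), against 11.2% of all genes, and none was called the other way. The list as a whole did not follow them, with 5 of the 12 fold changes towards knock-in leukemia and summed levels of 48.55 to 383.5 CPM in the T leukemias and 38.78 to 233.6 CPM in the knock-in leukemias. Mcpt8, a protease of basophils, read 9.48, 4.59, 0.832 and 1.1 against 8.15, 62.1 and 37.9 CPM (-3.17, adjusted p = 0.0519) and Prg2, the major basic protein of eosinophils, 5.61, 2.69, 2.97 and 3.79 against 0.996, 25.8 and 55.2 (-2.87, adjusted p = 0.0835). Both were called without knock-in f/+ leukemia 1 (adjusted p = 0.0316 and 0.0265), and Mcpt8 also without T leukemia 1 (adjusted p = 0.0384). Related protease genes lie close by and may share reads. Neither Tpsb2 nor Cma1 was called without the f/f leukemia (adjusted p = 0.0658 and 0.052), and Tpsb2 was not without either f/+ leukemia (adjusted p = 0.0511 and 0.0616).

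The same lineage and sorting contrast exists without leukemia, between the reference thymocytes and pre-leukemic marrow, and shares no library with the leukemia comparison. The references also differ in Cre, present in the Dnmt3af/f thymocytes and absent from the marrow, in transplantation and FLT3-ITD, and in the authors' software, earlier for the thymocytes and later for the marrow, so the parts of these differences in the values below cannot be told apart. There 4573 genes (31.1%) were called, 2417 higher in thymocytes (16.4%) and 2156 higher in marrow (14.6%). Called in both comparisons were 1757 genes, 1706 of them in the same direction, which is 49% of the genes called between leukemias and 37.3% of those called between references. Of the 604 genes 8-fold or more higher in T leukemia, 322 (53.3%) were also higher in the reference thymocytes, and of the 711 on the knock-in side 355 (49.9%) were also higher in pre-leukemic marrow. Across all genes the log2 fold changes had r = 0.499, a description.

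The difference between the 2 comparisons was called for 797 genes (5.41%), 317 higher (2.15%) and 480 lower (3.26%) in the leukemia comparison. The T cell receptor list was lower for 12 of 22 and higher for none. Cd8b1, the CD8 beta chain, read 358, 356, 244 and 90.5 CPM in the T leukemias and 1221 and 1223 in the reference thymocytes, and 3.55, 0.852 and 1.03 in the knock-in leukemias against 0 in all 3 pre-leukemic libraries (difference of log2 fold changes -10.03, adjusted p = 0.00531). It was the gene of the 12 named for this comparison that kept its call under every alternative tried. For Cd3d the difference was -6.26 (adjusted p = 0.00229), with 376.9 and 407.5 CPM in the reference thymocytes, within the range of the T leukemias, and at most 0.17 CPM in pre-leukemic marrow against 2.06 to 4.32 in the knock-in leukemias.

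Rbm24, an RNA-binding protein known from muscle, read 14 and 9.72 CPM in the reference thymocytes, 0, 0.056, 0.119 and 0.367 in the T leukemias, 0.0623, 6.53 and 0.432 in the knock-in leukemias and at most 0.35 in pre-leukemic marrow (difference -10.53, adjusted p = 0.0131). Its fold changes had opposite signs, 6.42 between references and -4.11 between leukemias, but the second rested mainly on knock-in f/+ leukemia 2. The leukemia groups overlapped, with knock-in f/+ leukemia 1 below T leukemias 3 and 4. Among the genes with differences the other way, Tpsb2, Cma1 and Mcpt4 had 35.46, 45.81 and 31.49 CPM in pre-leukemic library 3 and at most 4.55 in the other 4 reference libraries. Their differences, 19.96, 19.18 and 14.71, were fitted with whole groups at or near 0 and depend on how such zeros are handled.

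How many genes this difference calls depended on single libraries. It was 75 without reference thymocyte library 1 and 200 without library 2, 2425 without knock-in f/+ leukemia 1 and 2210 when the GFP thymocytes with intact Dnmt3a were added to the reference. Of the 12 named genes, 11 lost their call in a fit without 1 library.

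**Figure D5:**
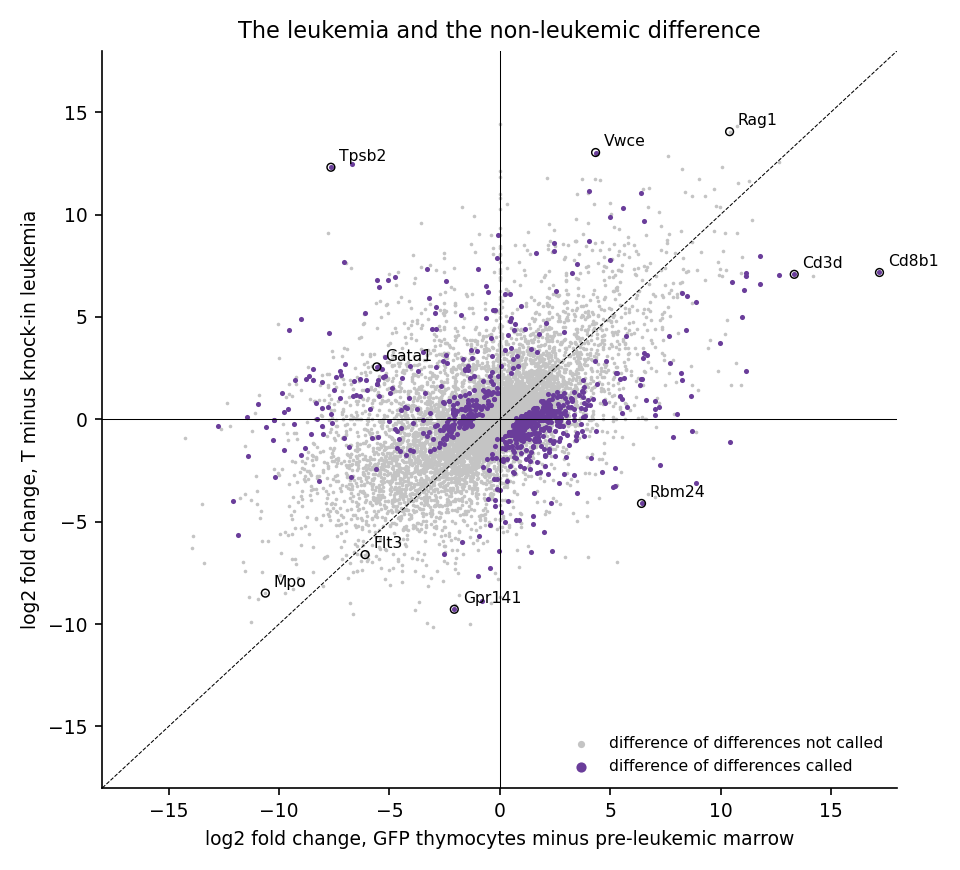
Log2 fold change of T against knock-in leukemia (vertical axis) by that of GFP thymocytes against pre-leukemic marrow (horizontal axis), with 1 point per tested gene and equality as the dashed line. The 797 genes whose difference of differences was called are purple. Cd3d and Cd8b1 lie below the dashed line with positive values on both axes, Rbm24 is positive between references and negative between leukemias, and Tpsb2 the reverse.

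Within the knock-in leukemias, the f/f leukemia did not differ from the 2 f/+ leukemias for any gene at an adjusted p under 0.05 by edgeR's quasi-likelihood test, with 1321 genes at an unadjusted p under 0.05, 212 called by DESeq2 and none by limma voom. With 1 f/f library, its spread was taken from the other groups. In simulated counts this test recovered 2% of genes changed 2-fold and 70% of those changed 8-fold. The lack of calls therefore does not show that the knock-in leukemias are alike. The f/f leukemia was closest to knock-in f/+ leukemia 2 (r = 0.958, against 0.886 to knock-in f/+ leukemia 1), and the 2 f/+ leukemias had r = 0.9 to each other. Without f/+ leukemia 2 the test called 413 genes and without f/+ leukemia 1 it called 0.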

How the data were processed

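RNA-seq of poly(A)-selected RNA gave 1 gene table for 17 libraries, of which 7 are the leukemias compared here and 5 the references. The authors aligned reads to mm9 with TopHat2 2.0.10, per the submitters' processing notes, which also name Cufflinks and Cuffdiff (Cuffdiff 2.2.1 for T leukemias 3 and 4 and the knock-in leukemias and marrow, 2.1.1 for the other libraries). The deposited values are estimated counts per gene, 98.34% of the nonzero ones whole within 0.001, and were rounded to whole numbers. Of 23458 genes, 14722 passed edgeR's filterByExpr, and Actb is listed at 0 in every library. All 17 libraries were scaled by TMM and fitted with edgeR 4.0.16 (quasi-likelihood F test, R 4.3.3), with the 3 knock-in leukemias as 1 group, and p-values were adjusted over all tested genes by Benjamini-Hochberg with a threshold of 0.05. Folds given as at least a value, for genes with a whole group at 0, are bounds against 3 counts over the group. Ratios by counts, with 1 to 3 counts in the lower group, carry exact counting intervals at 95%, which cover counting error only. All log2 fold changes and differences printed for such genes are fitted values that depend on how zeros are handled, and are not bounds. The script was tested on simulated data, where the comparison of T and knock-in leukemias recovered 16% of genes changed 2-fold and 90% of those changed 8-fold. The text names the 12 called genes with the largest difference each way with a mean of 5 CPM or more in the higher group and groups that do not overlap, leaving out predicted, numbered and sex-linked marker genes, the 6 largest each way for the difference of differences, the 4 members of each list with the smallest adjusted p, the paired genes and the defining genes Dnmt3a, Flt3, Cd4, Cd8a, Cd3e, Mpo, Elane, Itgam and Kit; Cish, Socs2, Pim2, Cd34, Meis1, Hlf, Notch1, Notch3, Rag2, Dntt, Cebpa, Mrc1, Csf1r, Ldhb, Slc2a3, Hes1, Hes5, Prtn3, Siglecg, Slc7a11, Cd6 and Hoxa10 were added after their values were seen. Of the genes so chosen, 4 are not reported here, nor are the 2 of 24 gene pairs that hold one. The members and the gene lists were chosen with earlier results of these data known. Alternatives were other scalings and filters, DESeq2 1.42.0, limma 3.58.1 voom, subsets of libraries, a replicate block and leaving out each library. Promoters are RefSeq windows in GRCm38.p6, and other coordinates are mm9.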

Additional observations from a re-analysis of the deposited data

Results flagged for a closer look

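Among the T leukemias, 194 genes and lists were screened for a library far from the other 3, and 19 stood out, by a gap, as a share of the group's whole range, above Dixon's 95% critical value for 4 samples; chance flags about 1 in 20 groups. T leukemia 4 was the library in 7 of them, high for the megakaryocyte list (share of the range 0.871), Bcl2a1b (0.935), Itgam (0.842) and Ncam2 (1.0) and low for the T cell receptor list (0.838), Aurkb (0.893) and Ccnb1 (0.9002). T leukemia 3 was high for Ccr9 (0.967), Gata3 (0.8292), Ikzf1 (0.866) and Runx3 (0.87) and low for Dtx1 (0.849). T leukemia 2 was high for the erythroid list (0.854), Kcnk12 (1.0) and Runx1 (0.939) and low for Hlf (0.952). T leukemia 1 was high for Cd247 (0.911), Hoxa9 (1.0) and Ms4a3 (0.885). For Hoxa9, Kcnk12 and Ncam2 the other 3 libraries were at 0, so a few counts make the gap. Hlf was also very low throughout, at log2 CPM of -2.05 in T leukemia 2 and -1.04 to -0.99 in the other T leukemias.

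For 38 named genes the leukemia difference (T minus knock-in) was not the same as that between GFP thymocytes and pre-leukemic marrow, by edgeR's test of the difference itself. It was lower between leukemias for T lineage genes, by log2 differences of -6.26 for Cd3d, -5.15 for Cd3e, -3.99 for Cd3g, -3.85 for Cd4, -6.15 for Cd6, -5.62 for Cd8a, -10.03 for Cd8b1, -6.35 for Id3, -6.26 for Rasgrp1, -2.45 for Tcf7, -3.82 for Themis and -2.07 for Zap70. It was also lower for Adam12 (-8.83), Gpr141 (-7.22), Inpp5j (-8.8), Rara (-3.43), Rasgrp4 (-3.81), Rbm24 (-10.53), Slfn1 (-8.7) and Zcchc12 (-9.47). It was higher for Arpp21 (4.62), Bcl2 (3.84), Dnmt3b (4.24), Hes1 (4.43), Il2ra (4.65), Slamf1 (3.76), Tet1 (1.82), Mybbp1a (1.46) and Vwce (8.68). The same held for genes of other cell types, namely Gata1 (8.13), Itga2b (3.9), Pdgfrb (6.69), Cma1 (19.18), Mcpt4 (14.71) and Tpsb2 (19.96), and for Ces2g (12.44), Cyp26b1 (13.88) and Pkia (13.88). Values past 8 in size have a group at or near 0 and depend on how zeros are handled, and so do some smaller ones. Cd3d and Cd3g had 1 and 6 counts in all in pre-leukemic marrow. Their means in reference thymocytes, 392.2 and 443.5 CPM, were near those of the T leukemias, 438.6 and 479.7. Cd4, Themis and Tcf7 averaged 301.4, 271.7 and 866.3 CPM in the T leukemias, below 1413, 933.2 and 2282 in reference thymocytes.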

How the results depend on the processing

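The 3485 genes called between T and knock-in leukemia became 1304 when the test asked for more than a 2-fold difference, 1104 when only the 7 leukemia libraries were fitted, 2293 with T leukemias 3 and 4 alone and 2000 against the f/f leukemia alone. The count was 2609 to 4482 without each library in turn, and 3110 to 4733 under the other scalings, filters and tools and with T leukemias from marrow alone, with 2592 against the f/+ leukemias alone. The 797 genes of the difference of differences became 2255 with DESeq2 (55.3% higher, against 39.8%), 2210 with both GFP groups as reference (50.3% higher) and 75 to 2425 without each library in turn. The f/f comparison gave 1 gene with DESeq2 size factors and 212 with DESeq2, and 0 to 413 without each f/+ leukemia. The cause of these shifts was not tested, except that fewer libraries or a stricter null enter where so described. With a replicate block the calls were 3872 between leukemias and 535 for the difference of differences. Deviations of same-numbered T and f/+ leukemias from their group means had r = -0.016 and 0.034. The deviations of the 2 f/+ leukemias mirror each other, so these values showed no pairing by number but cannot exclude one. Of 141 called genes named for the leukemia comparison, 71 were called under every alternative that gave them an adjusted p, at most 19 each. The call was lost without some 1 library for 34. Signs turned for 9 named genes, none called there: Cish (-0.06 with marrow T leukemias, -0.33 against f/+ alone, -0.33 without f/+ leukemia 2 and -0.36 without the f/f leukemia), Ikzf1 (-0.11), Odc1 (0.07), Pfkl (0.19), Pim2 (0.52) and Socs2 (1.37) against the f/f leukemia alone, Odc1 (0.37), Pim2 (0.04) and Socs2 (0.89) without f/+ leukemia 1, Pfkm (-0.02 against f/+ alone and -0.04 without the f/f leukemia), and Pcna (-0.37) and Tyms (-0.0) with T leukemias 3 and 4 alone. Without each library in turn, the values ran from -0.36 to 3.62 for Cish, -1.17 to 0.37 for Odc1, -0.04 to 0.96 for Pfkm, -4.63 to 0.04 for Pim2 and -2.62 to 0.89 for Socs2, and without f/+ leukemia 1 Cish and Pfkm became called and Pim2 lost its call. With 3 and 4 libraries a group, genes with large spread within a group were not resolved.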
